A study of Mus musculus with 6 samples.

Results

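The granins and the prohormone-processing enzymes make up the core of the regulated secretory granule of endocrine cells. The group held 10 genes, namely the convertases Pcsk1 and Pcsk2, the carboxypeptidase Cpe, the inhibitor Pcsk1n, and the granins and granin-like proteins Chga, Chgb, Scg2, Scg3, Scg5 and Vgf. Members were all probe sets annotated to exactly 1 of these symbols, which gave 10 probe sets of 9 genes among the 45037 probe sets tested. Cpe had 2 probe sets and each other gene had 1. Pcsk2 had no probe set under its name in the annotation used and is not analysed here.

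Expression was measured in pancreatic islets of 6 mice on Affymetrix arrays, 1 array per mouse. The 3 wild-type mice are replicates 1 to 3. The 3 hIAPP_Tg mice, replicates 4 to 6, carry human islet amyloid polypeptide (IAPP) driven by the Ins2 promoter, which is active in beta cells. All mice were 12 weeks old per the sample labels, or 10 to 12 weeks per the design text, ate standard chow, and carry FVB/N-Tg(Ins2-IAPP)RFHSoel/J as their strain in the labels, wild-type mice included. Values are log2 RMA values as deposited, rounded to steps of 0.1, and a difference is hIAPP_Tg minus wild type, so that 1 unit is a doubling. The comparison asks how the level of these transcripts differs between genotypes. A bulk islet sample cannot separate fewer cells of a type from less RNA per cell.

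Prohormones such as proinsulin, proglucagon and proIAPP are cut at pairs of basic residues while the granule matures. PC1/3, the product of Pcsk1, and PC2, the product of Pcsk2, make these cuts, and carboxypeptidase E then trims the exposed basic residues. Both convertases act on proIAPP. Granins are acidic proteins that aggregate in the trans-Golgi network, take part in granule formation and hormone sorting, and are themselves cut into peptides.

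The promoters of several of these genes, though not all, share a sequence, which is shown here because the array values did not enter it. The cAMP response element, the site bound by CREB, has the 8-base palindrome TGACGTCA and the 5-base core TGACG. Both strands were searched from 250 bases before to 50 bases after the annotated start, in RefSeq promoter entries of build GRCm38.p6. Entries were found for 8 members, all but Cpe and Vgf. The 30-base windows below run 5′ to 3′ on the strand of the gene, with the full element in capitals where present and otherwise the first core upstream of the start, which reads CGTCA when it lies on the other strand.
Pcsk1 (chr13:75089768-75089797, + strand): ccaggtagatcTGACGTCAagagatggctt
Chgb (chr2:132781559-132781588, + strand): gggctgctccgTGACGTCAgggctgagcga
Scg2 (chr1:79440076-79440105, - strand): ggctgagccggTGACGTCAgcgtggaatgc
Chga (chr12:102554885-102554914, + strand): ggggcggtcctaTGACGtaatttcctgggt
Scg3 (chr9:75684069-75684098, - strand): gcgctgggtcgcTGACGccatcctcacgcc
Pcsk2 (chr2:143546087-143546116, + strand): ctggcgggcgcgCGTCAcccgggctggcgc
Scg5 (chr2:113829249-113829278, - strand): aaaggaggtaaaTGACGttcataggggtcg

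The full element stood in 3 of the 8 member promoters, Pcsk1, Chgb and Scg2, against 1.79% of all 32851 promoter entries of the same length. It began 78 bases before the start in Pcsk1, 72 in Chgb and 68 in Scg2. The core stood in 7 of 8, all but Pcsk1n, against 20.8% of all entries, and every full element contains the core on both strands. The printed cores began 44 bases before the start in Chga, 34 in Pcsk2, 30 in Scg3 and 175 in Scg5, which has 2 more after its start. A match of letters is a description and was not tested for binding.

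**Figure D1:**
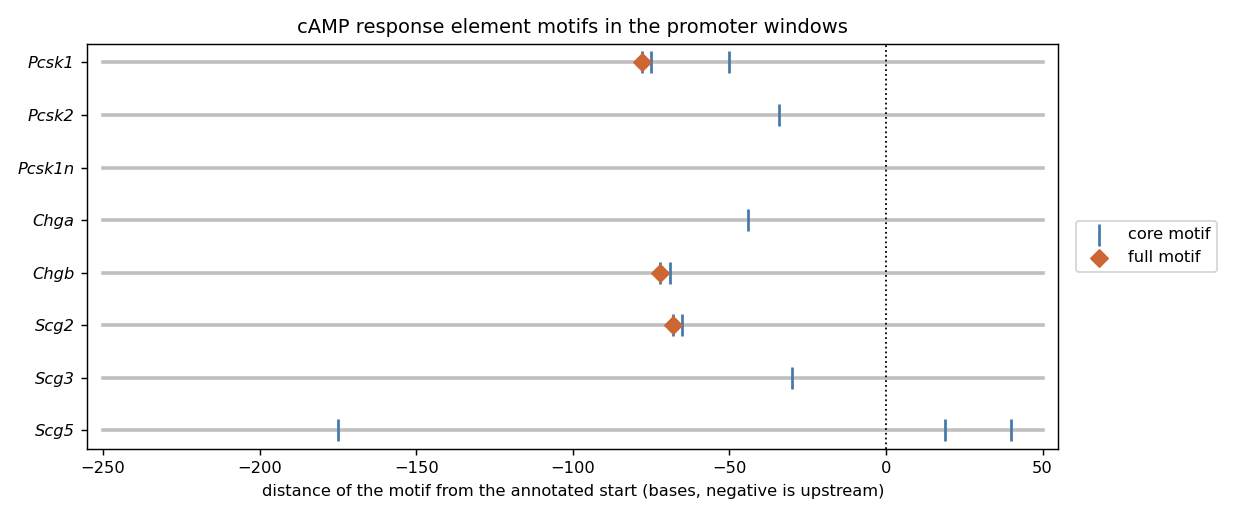
Position of the full element (diamonds) and of its core (bars) relative to the annotated start in bases, for the 8 members with a promoter entry. The 3 full elements lie 68 to 78 bases upstream, and Pcsk1n has no match.

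The islet identity of the samples was visible in the hormone genes. Ins2 was at 15.1 on all 6 arrays, the highest value of the table, Gcg at 14.7 to 14.8 and Sst at 14.0 to 14.2. The brightest mouse Iapp probe set was at 14.9 to 15.0, and since probes made for the mouse gene may miss the human transcript it does not check the genotype labels. Of markers of other cells, 12 of 12 macrophage markers had differences above 0, of which 2, Mpeg1 and Tyrobp, passed the limma test after adjustment (list mean 7.18 to 7.37 on wild-type and 8.45 to 8.62 on hIAPP_Tg arrays) and 11 of 11 measured acinar markers had differences below 0, of which 0 passed (11.09 to 12.72 against 9.78 to 12.21). Their part in the results below was not tested beyond the fits that take these means as covariates. Among 26 duct, endothelial, stellate and Schwann cell markers 0 passed the limma test after Benjamini-Hochberg adjustment. At an unadjusted p under 0.05 4 were higher and 4 lower, where 3.82% and 3.51% of all probe sets were. By cell type, 2 of 6 duct markers were higher and 0 lower, and 3 of 7 endothelial markers were lower and 0 higher. Of 8 stellate markers 2 were higher and 1 lower, and of 5 Schwann cell markers 0 were higher and 0 lower. At the same unadjusted level 11 of 12 macrophage markers were higher and 0 lower. Of 11 acinar markers 0 were higher and 0 lower.

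No granin or processing enzyme gene differed between genotypes past the threshold. Of the 10 probe sets, 0 passed an adjusted p of 0.05 (limma, Benjamini-Hochberg over all 45037 probe sets), where 0.0289% of all probe sets did, and the lowest adjusted p was 0.552. At an unadjusted p under 0.05, 2 were higher in hIAPP_Tg islets, Chgb and Scg3, against a background of 3.82%, and 0 were lower, against 3.51%. With the acinar marker mean as a covariate neither of these 2 had an unadjusted p under 0.05. The same 2 were the members for which all hIAPP_Tg values lay above all wild-type values, against 3.44%, and 0 members were separated with hIAPP_Tg lower, against 3.22%. By direction, 5 probe sets lay above 0, 2 below and 3 at 0. The median over the 9 genes was 0, equal to that over all probe sets. The 124 probe sets with a mean of at least 13, which include 6 member probe sets, had a median of 0.067. With the macrophage marker mean as a covariate, which itself separates the genotypes, the differences of Pcsk1 (0.24), Chga (0.11), Chgb (-0.15) and Pcsk1n (-1.37) had the opposite sign to that reported below, Vgf stood at 3.27, and none passed after adjustment.

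Pcsk1 encodes PC1/3, which makes the first cuts in proinsulin and proIAPP. Its probe set read 11.8, 12.1 and 11.8 in the wild-type mice and 11.8, 11.4 and 11.7 in the hIAPP_Tg mice. The genotypes overlapped, hIAPP_Tg replicate 4 matching 2 of the wild-type mice, and replicate 5 was lowest. The means were 11.90 ± 0.17 and 11.63 ± 0.21 (SD, n = 3 each), a difference of -0.27 with a 95% interval of -0.59 to 0.059 (limma, SE 0.13, adjusted p = 0.683). The difference was -0.15 without hIAPP_Tg replicate 5, -0.17 without wild-type replicate 2 and -0.14 with the acinar marker mean as a covariate. With quantile normalization it was -0.33 (limma unadjusted p = 0.0276, adjusted p = 0.668).

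Pcsk1n encodes proSAAS, a granin-like protein whose C-terminal peptide inhibits PC1/3. It read 10.6, 10.4 and 10.2 on wild-type and 10.4, 10.4 and 10.5 on hIAPP_Tg arrays. All hIAPP_Tg values lay inside the wild-type range, and the difference was 0.033 (95% interval -0.23 to 0.30, limma adjusted p = 0.927). Its sign was not stable, at 0.13 without wild-type replicate 1, -0.067 without wild-type replicate 3 and -0.028 with quantile normalization. The balance of inhibitor to enzyme was followed as the value of Pcsk1n minus that of Pcsk1 on each array. Only its change has a meaning, since levels of different probe sets are not comparable. It was -1.2, -1.7 and -1.6 in wild-type and -1.4, -1.0 and -1.2 in hIAPP_Tg islets. The change was 0.30 toward the inhibitor, within overlapping genotypes (exact permutation test, two-sided, p = 0.3, smallest possible p = 0.1, n = 3 each).

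Cpe encodes carboxypeptidase E, which also serves as a membrane-bound sorting component of the granule. The brighter probe set read 14.2, 14.3 and 14.2 on wild-type and 14.3, 14.2 and 14.2 on hIAPP_Tg arrays, the same 3 values in both genotypes. Its difference was 0 with a 95% interval of -0.15 to 0.15 (limma adjusted p = 1). The second Cpe probe set, of the type that may bind related sequences, read 6.0, 6.2 and 6.3 against 6.5, 6.3 and 6.2. It lay close to the array median of 5.7 and differed by 0.17 (95% interval -0.10 to 0.44, limma adjusted p = 0.731), with overlapping genotypes.

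Chga and Chgb encode the chromogranins A and B, the classical granins. Chga read 14.0, 14.0 and 13.9 on wild-type and 14.0, 13.8 and 13.9 on hIAPP_Tg arrays, overlapping, with a difference of -0.067 (95% interval -0.24 to 0.11, limma adjusted p = 0.818). Chgb read 13.4, 13.5 and 13.4 against 13.6, 13.7 and 13.6. Every hIAPP_Tg mouse lay above every wild-type mouse, by at least 1 step of the rounding. The means were 13.43 ± 0.058 and 13.63 ± 0.058 (SD, n = 3 each), a difference of 0.20 or 1.15-fold (95% interval 0.048 to 0.35, limma unadjusted p = 0.0178, adjusted p = 0.552). Whether the 2 chromogranins differ in response was not tested, and rounding alone leaves the sign of Chga unsettled, since its difference could lie between -0.17 and 0.033.

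Scg3 encodes secretogranin III, which binds chromogranin A and anchors it to cholesterol-rich granule membrane. It read 13.8, 13.8 and 13.7 on wild-type and 14.0, 13.9 and 13.9 on hIAPP_Tg arrays. The genotypes did not overlap, the nearest mice being 1 rounding step apart. The difference was 0.17 or 1.12-fold (95% interval 0.015 to 0.32, limma unadjusted p = 0.0362, adjusted p = 0.620). Rounding to 0.1 can move a difference of means by up to 0.1, which would place the difference of Scg3 between 0.067 and 0.27 and that of Chgb between 0.10 and 0.30. Among the 124 probe sets with a mean of at least 13, 7 (5.65%) were higher at an unadjusted p under 0.05. In 12 (9.68%) all hIAPP_Tg values lay above all wild-type values. Both counts include Chgb and Scg3. Of the member probe sets, 6 lie in that range, and Chgb and Scg3 are 2 of these 6.

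Scg2 and Scg5 had the same mean in both genotypes. Scg2, the precursor of secretoneurin, read 14.3 on all 6 arrays (difference 0, 95% interval -0.12 to 0.12). As its rounded values did not vary, that interval rests on the variance that limma takes from all probe sets. Scg5, which encodes the PC2 chaperone 7B2, read 14.1, 14.2 and 14.1 on wild-type and 14.2, 14.1 and 14.1 on hIAPP_Tg arrays, again the same values in both genotypes (difference 0, 95% interval -0.15 to 0.15). Near the top of the scale a difference could be hidden by saturation. Of the 3 genes with the full element, Pcsk1 thus differed by -0.27, Scg2 by 0 and Chgb by 0.20 between genotypes.

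Vgf had the widest range of the group. It encodes a neurotrophin-inducible precursor that is cut into several secreted peptides. Its probe set read 6.9, 7.3 and 6.8 in wild-type and 8.4, 6.9 and 8.1 in hIAPP_Tg mice. Replicates 4 and 6 lay above every wild-type mouse by at least 0.8, while replicate 5 lay inside the wild-type range. The means were 7.0 ± 0.26 and 7.8 ± 0.79 (SD, n = 3 each), a difference of 0.80 or 1.74-fold that did not pass (95% interval -0.14 to 1.74, limma SE 0.39, adjusted p = 0.672). This value turned on single mice. It was 1.25 without hIAPP_Tg replicate 5 (unadjusted p = 0.00209, adjusted p = 0.630), 0.50 without replicate 4 and 0.65 without replicate 6. With the acinar marker mean as a covariate it was 1.23 (unadjusted p = 0.00874, limma adjusted p = 0.729). That mean was lowest of all on replicate 5, at 9.78. The part of acinar RNA in the Vgf values was not tested beyond this fit.

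**Figure D2:**
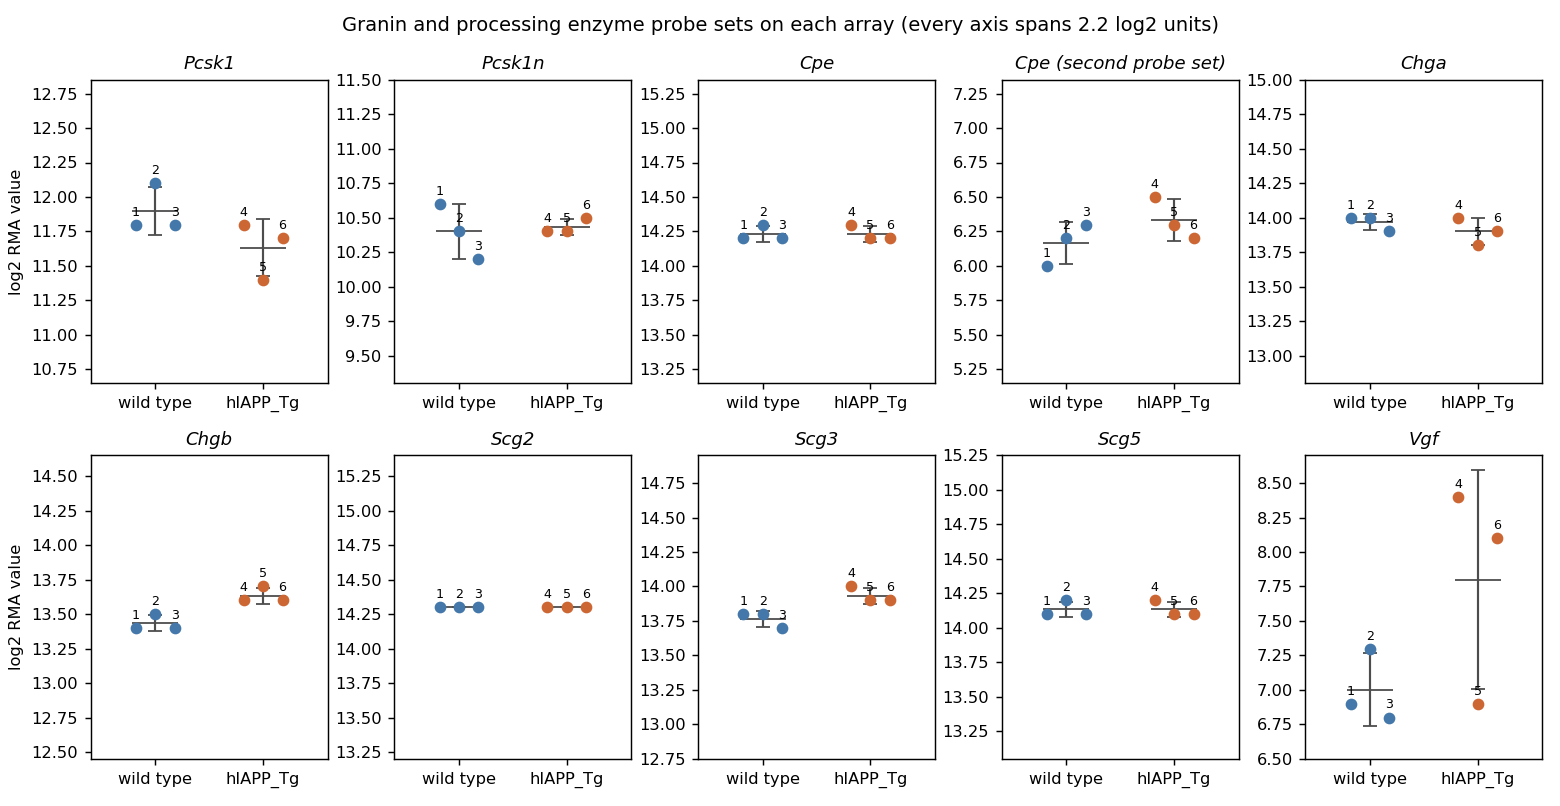
Log2 RMA values of the 10 probe sets on each array, with wild-type mice in blue and hIAPP_Tg mice in orange, replicate numbers beside the points, and mean and SD as bars. Chgb and Scg3 are separated by 0.1 at the nearest mice, and in Vgf replicate 5 sits with the wild-type mice.

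Within the hIAPP_Tg group, replicate 4 was alone highest in 7 of the 10 probe sets, in each but Vgf by no more than 0.2. Replicate 5 was alone lowest in 3, which were Pcsk1, Chga and Vgf, and alone highest in 1, Chgb. The SE of the difference was not the same for all members. It ran from 0.050 for Scg2 to 0.39 for Vgf, and the 95% interval lay within -0.5 to 0.5 for 8 of the 10 probe sets, all but Pcsk1 and Vgf. The rounded values of Scg2 had an SD of 0 in both genotypes. Its SE therefore comes only from the variance that limma takes from all probe sets and is not a measured precision.

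**Figure D3:**
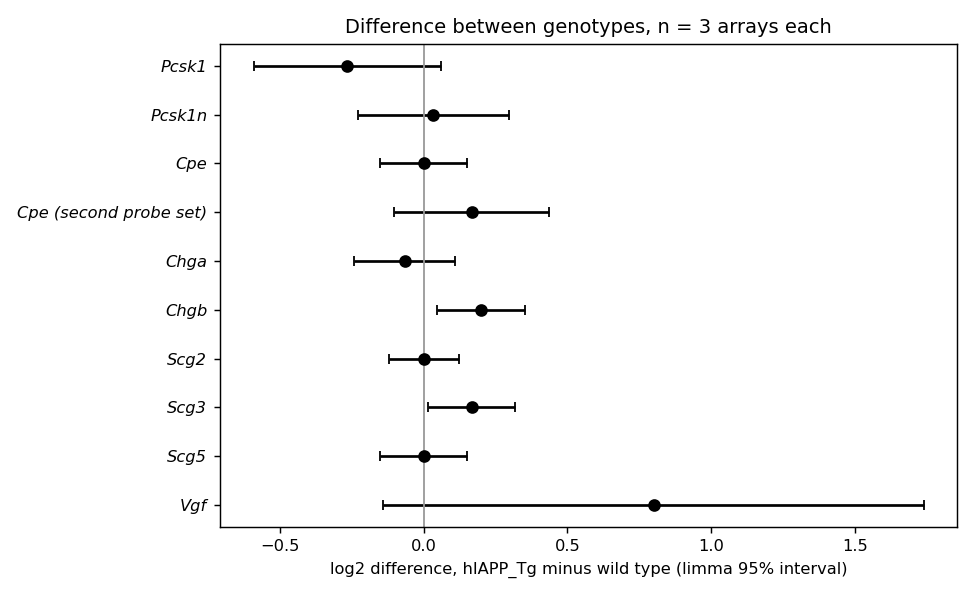
Log2 difference between genotypes with its limma 95% interval for each probe set, 3 arrays per genotype. The intervals of Chgb (0.048 to 0.35) and Scg3 (0.015 to 0.32) exclude 0 before adjustment, and that of Vgf is the widest.

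The deviations from the genotype means were also compared with those of other genes over the 6 arrays, for the 3 genes whose brightest probe set had the widest range. For Vgf the highest Pearson correlations were with 9330151L19Rik (0.996), Rrm2 (0.995) and Eid1 (0.993). For Pcsk1 they were with Duoxa1 (1.00), Coro2a (1.00) and Cmtm8 (0.996), and for Pcsk1n with Spen (0.996), Ccne2 (0.996) and Itga1 (0.992). These are descriptions over 6 rounded values sharing 1 normalization, and the highest were picked from 3234 genes compared (3235 for Pcsk1n). Of these genes, 85 exceeded 0.9 for Vgf, 53 for Pcsk1 and 68 for Pcsk1n. Subtracting the genotype means leaves fewer free values than arrays, so high correlations arise easily. How many unrelated genes would exceed 0.9 was not measured.

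The wider pathway was described by 5 lists holding 73 genes, of which 68 were measured, each by its brightest probe set. None of the 68 passed an adjusted p of 0.05 in limma. At an unadjusted p under 0.05, 5 were higher and 2 lower, where 3.82% and 3.51% of all probe sets were. Pcsk7, Cpm, Tac1, Cartpt and Npy are named below because their genotypes did not overlap, so that their separation was fixed by this choice.

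Among 6 other convertases measured the median difference was 0.05. Furin, the ubiquitous convertase of the trans-Golgi network, read 8.6, 8.6 and 8.3 against 8.7, 8.6 and 8.7. Pcsk7, a convertase of the constitutive pathway, read 6.9, 7.0 and 6.9 on wild-type and 7.1 on all 3 hIAPP_Tg arrays, so that the genotypes separated by 1 rounding step (difference 0.17, limma unadjusted p = 0.0250, adjusted p = 0.557). Among 10 carboxypeptidases and peptide-finishing enzymes the median was 0.017. Cpm, a membrane carboxypeptidase, read 7.5, 7.5 and 8.0 against 6.9, 7.4 and 7.1, lower in every hIAPP_Tg mouse (difference -0.53, limma unadjusted p = 0.0257, adjusted p = 0.571), while its second probe set overlapped and differed by -0.23. Pam, which amidates peptides including IAPP, was named after its values were seen. It read 10.3, 10.0 and 10.6 against 10.7, 10.6 and 10.8, with replicate 5 tied to a wild-type mouse (difference 0.40, limma unadjusted p = 0.0392, adjusted p = 0.620).

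Genes of granule biogenesis and membrane (21 measured) had a median of 0.067 with 14 above 0 and 5 below, and 0 passed at an unadjusted p under 0.05. Their differences ran from -0.17 to 0.33, and all probe sets together had a median of 0 and a median absolute difference of 0.067. Ptprn, the granule membrane protein IA-2, read 9.6, 9.8 and 9.6 against 9.8, 9.5 and 9.7, and differed by 0. Transcriptional regulators of granule genes (11 measured) had a median of -0.033, again with 0 at an unadjusted p under 0.05. The lowest was Insm1, a zinc-finger factor of endocrine differentiation, which read 11.5, 11.5 and 11.6 against 11.6, 10.6 and 11.1. As for Pcsk1, Chga and Vgf, replicate 5 was the lowest hIAPP_Tg array, and the genotypes overlapped (difference -0.43, limma adjusted p = 0.683). Creb1, which encodes the factor that binds the element shown above, read 9.5, 8.4 and 9.1 against 8.7, 9.1 and 9.0, overlapping.

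**Figure D4:**
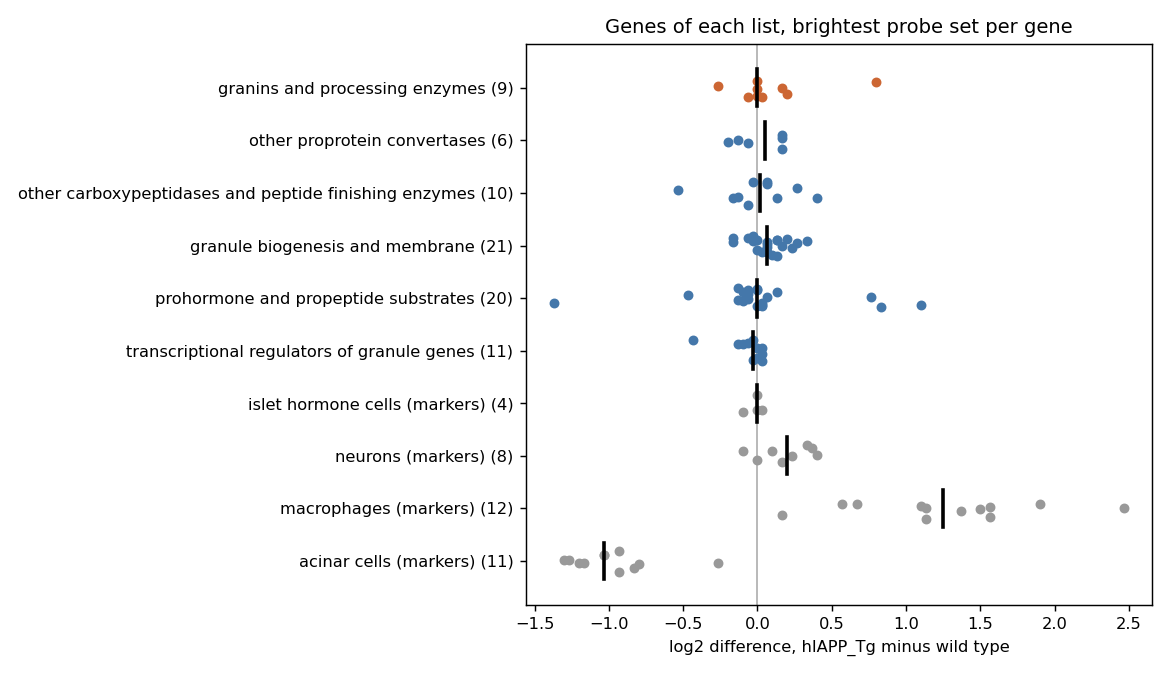
Log2 difference between genotypes for each gene of the lists, with the number of genes in brackets and the list median as a black line. The granins and processing enzymes have a median of 0 and the pathway lists medians of -0.033 to 0.067, while macrophage markers lie above 0 and acinar markers below.

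Differences among the precursors that such enzymes act on ran from -1.37 to 1.1. Of 20 measured, 3 were higher and 1 lower at an unadjusted p under 0.05 in limma, where 3.82% and 3.51% of all probe sets were. In 3 all hIAPP_Tg values lay above all wild-type values and in 1 below, against 3.44% and 3.22% of all probe sets. The median was 0. Tac1, the precursor of substance P, read 6.5, 6.6 and 6.6 on wild-type and 7.6, 7.3 and 7.1 on hIAPP_Tg arrays, a difference of 0.77 (limma unadjusted p = 0.000861, adjusted p = 0.291). Its other probe set, at 3.7 to 3.8, differed by -0.033. Cartpt, the precursor of the CART peptide, read 6.6, 6.6 and 6.2 against 7.6, 7.4 and 6.9, a difference of 0.83 (limma adjusted p = 0.50). In both genes every hIAPP_Tg mouse lay above every wild-type mouse, which the rule for naming them required.

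In Vip, the precursor of vasoactive intestinal peptide, every hIAPP_Tg mouse also lay above every wild-type mouse. Vip was named after its values were seen. It read 9.9, 9.2 and 9.0 against 10.9, 10.3 and 10.2, a difference of 1.1 or 2.14-fold (limma adjusted p = 0.503). Npy, the neuropeptide Y precursor, went the other way, at 10.0, 11.0 and 10.4 against 9.7, 8.7 and 8.9. All 3 hIAPP_Tg mice lay below the wild-type mice, which the naming rule required (difference -1.37, limma adjusted p = 0.503). Neurons also make these peptides. Of 8 genes listed as neuron markers 6 were above 0, 1 (Prph) below and 1 (Elavl3) at 0, and 0 passed after adjustment. At an unadjusted p under 0.05 in limma 1 (Syt1, 0.40) was higher and 0 lower, where 3.82% and 3.51% of all probe sets were. The list mean was 7.61 to 7.76 on wild-type and 7.78 to 7.96 on hIAPP_Tg arrays. Snap25 was the brightest of them, at 11.4 to 11.8, and whether these genes mark only neurons in islets was not tested. The part of neural cells in the values of these precursors was not tested either.

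**Figure D5:**
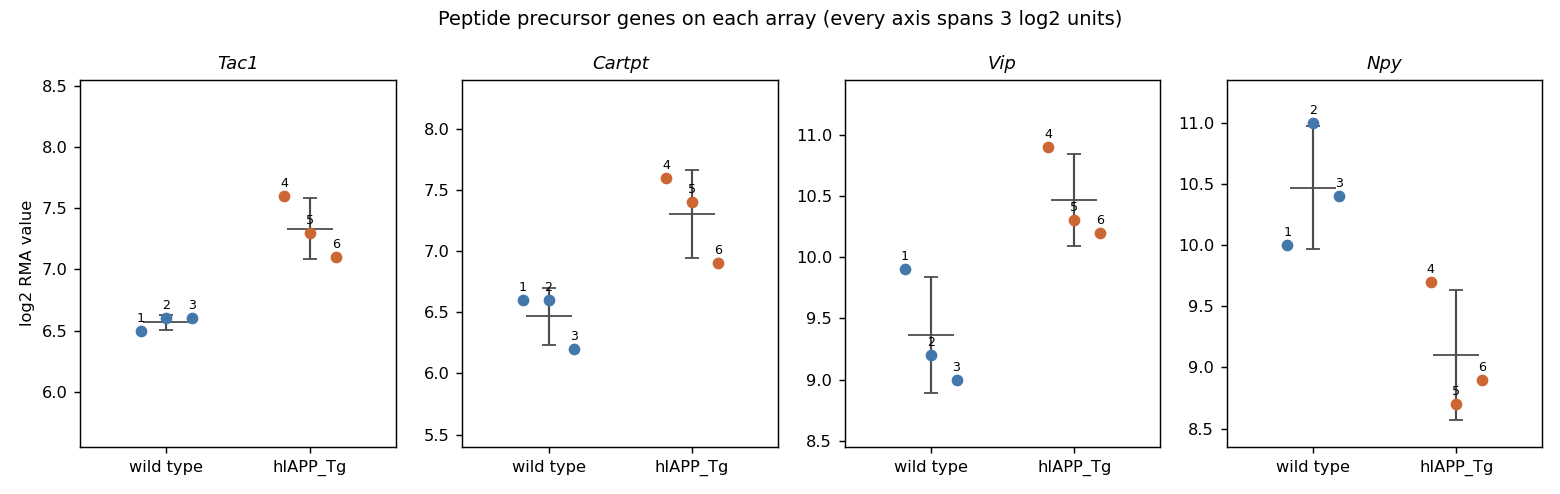
Log2 RMA values of 4 peptide precursor genes on each array, with mean and SD as bars. Tac1, Cartpt and Vip are higher and Npy lower on all 3 hIAPP_Tg arrays (orange) than on any wild-type array (blue), and none passed after adjustment. Tac1, Cartpt and Npy were picked for not overlapping, and Vip after its values were seen.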

How the data were processed

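The authors deposited log2 expression values per probe set, which the submitters' processing notes credit to RMA and affy, with versions not given in the sources used here. RMA gives all arrays 1 distribution (median 5.7 on each array). Differences may be compressed near both ends of the scale, which ran from 2.9 to 15.1, and this was not measured. Arrays have no read depth, and their number limits the precision.

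The 64 control probe sets were left out. Names came from the platform annotation, checked by Entrez number against RefSeq (GRCm38.p6). Of the 45037 probe sets 34945 had 1 symbol, 932 several and 9160 were unnamed here. Each was tested with limma 3.58.1 in R 4.3.3 (lmFit, eBayes, two-sided, no covariate, Benjamini-Hochberg over all probe sets). A run on simulated data required only that the mean of planted differences be returned. It set no demand on the share recovered or on false calls. The brightest probe set stood for a gene in lists. All members were named, as were up to 2 genes per direction and pathway list with the smallest p among those without overlap, and the nearest 3 genes by correlation for 3 members. Furin, Ptprn, Insm1 and Creb1 were named beyond that rule, after their values were seen. Members and lists were chosen with earlier results of these data known. The planned value of Scg5 minus Pcsk2 could not be formed without Pcsk2. Alternatives were other normalizations, filters, variance models, averaged probe sets, 2 marker covariates, and leaving out each array. Each array is 1 mouse per the labels. Figures were drawn with matplotlib 3.10.9.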

Additional observations from a re-analysis of the deposited data

How the results depend on the processing

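The count of 0 member probe sets past an adjusted p of 0.05 held in all 17 alternatives, as did that of 0 for the pathway genes, with lowest adjusted p of 0.352 and 0.125 over them. Median centring could not change these counts, since every array already had a median of 5.7. The macrophage marker mean separates the genotypes, so the fit with that covariate had little power to find a difference. The count of member probe sets at an unadjusted p under 0.05, 2 as reported, was 1 with a robust prior (Chgb), 3 with quantile normalization (Pcsk1 added, at -0.33) and 3 with array quality weights (Vgf added, at 0.91). With the macrophage covariate it was 1, and that one was the second Cpe probe set, at 1.92, with neither Chgb nor Scg3. With the acinar covariate it was again 2, but these were Vgf, at 1.23, and the second Cpe probe set, at 0.27. It ran from 1 to 3 when single arrays were left out. It was 1 without wild-type replicate 3 or hIAPP_Tg replicate 4, and in both Scg3 no longer counted (limma unadjusted p = 0.0761 and 0.0652; limma adjusted p = 0.769 and 0.508). With the macrophage covariate, whose mean does not overlap between genotypes, the differences of Chga (0.11), Chgb (-0.15), Pcsk1 (0.24) and Pcsk1n (-1.37) changed sign. With the acinar covariate Chgb (0.18) and Scg3 (0.18) had an unadjusted p of 0.0636 and 0.0696. When single arrays were left out, Chgb ran from 0.17 to 0.23, Scg3 from 0.13 to 0.18, Pcsk1 from -0.35 to -0.15, Pcsk1n from -0.067 to 0.13, Chga from -0.12 to -0.017 and Vgf from 0.50 to 1.25, and the change of Pcsk1n against Pcsk1 from 0.20 to 0.45. No paired analysis was possible because the replicate numbers differ between the genotypes. Rounding, brightness near the top of the scale and 3 mice per genotype limit what can be seen.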
